A study of Mus musculus with 10 samples.

Results

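The probes described here are the 51691 noncontrol probes of one Agilent array design whose names have the manufacturer's catalogue form, the letter A, a number that stands for a series of probes (51, 52, 55, 65 or 66), the letter P and a serial number. They were chosen by that form of name alone, out of 145548 noncontrol probes, and the other 93857 carry custom names. Each is a designed DNA oligonucleotide of 60 bases fixed to the glass, and the brightness of its spot rises with the amount of matching labelled RNA. Catalogue probes with 1 spot numbered 50481, and 1210 had 10 spots spread over the array. Their sequences were nearly all distinct (51678 of 51691).

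Total RNA came from ventricular tissue of male C57BL/6 mice, the infarct border in the infarct samples, collected 21 days after surgery. Of the samples, 5 came after a myocardial infarction (MI) and 5 after a sham operation, and no age, allele or drug is given. Each sample was labelled with Cy3 and read on 1 array. Whether each sample is a separate animal is not stated outright, so p-values here measure the spread between samples, and the number of arrays limits the precision.

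After an infarction the muscle that has lost its blood supply dies and is replaced by a collagen scar. The border area is the living tissue next to it, where surviving heart muscle cells lie beside activated fibroblasts and invading immune cells. At 3 weeks after surgery, the interval in the study's design text, a mouse scar is usually in its maturing phase. In such bulk RNA, fewer cells of a type and less RNA per cell cannot be told apart.

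The annotation columns of the files repeat the probe name in place of a gene and hold no genome position. A probe is therefore named here by its ID and its sequence. Neither ID form was read as coding or noncoding, and the 376 genes of the 18 pathway and cell type lists could not be followed, as only 1 of them (Fbn1, which encodes the microfibril protein fibrillin) had a placed probe, and that probe was too dim to be tested. The labelled tissue could not be checked against heart muscle markers for the same reason. A match of all 60 bases to windows around annotated gene starts placed 291 probes, and these are described last.

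The first 30 of the 60 bases of the 18 catalogue probes that differed between MI and sham are printed below, in the 5′ to 3′ direction with the probes higher in MI first and by size of difference, because they identify the transcripts on which the comparison rests. All were higher in MI except A_55_P2149941 and A_55_P2035956, which stand last and were lower.

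A_51_P409010: ctgcgctaccgttgcaatgatacaatccct

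A_52_P302544: acttaccacatatcacatatcaggttcagg

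A_55_P2083609: gcctgtaaatcgcatctgaagataccacag

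A_52_P220176: gaatgaaatttgcaaagtcgcttagcaaca

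A_55_P2740153: aacacagtccatgtgcaccaggaagttcac

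A_55_P2040245: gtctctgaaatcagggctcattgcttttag

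A_51_P464703: accagaagtctcaaattctgcagccttgaa

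A_55_P2142232: gctgccacaggagtcaaagttaatctacgt

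A_55_P2746459: gcctgtagagttagtatttctggtttttat

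A_51_P208603: aatgataactactgacgaaagagctgtctg

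A_51_P428708: tcactggagcgaagggtggaggacaaggat

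A_55_P2745402: tccctgggcagcacaatcagtgtcaaggtg

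A_51_P157042: gtcaaatccctgttggtgaacaaatggcct

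A_51_P255456: actacattaagcagatagatcaccatgtat

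A_55_P2733332: aacctttttcataagtaatcagccattttg

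A_51_P508838: gagaaagatgtgttgacttaaagacacagt

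A_55_P2149941: tttttagagacagccagtctatcaactctc

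A_55_P2035956: agatgagtttgtagaagataccagaaggta

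By the file headers the arrays lie on 3 slides. Sham replicates 1 to 4 shared slide 1. Slide 2 carried the remaining sham array, replicate 5, together with MI replicates 1 to 3. The last MI arrays, replicates 4 and 5, were on slide 3. Outside slide 2, slide and group cannot be told apart. The median local background of a noncontrol spot was 15 intensity units on all arrays of slide 1, 16 or 17 on slide 2 and 23 on slide 3.

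A majority of the catalogue probes gave a signal in both kinds of tissue. On the sham arrays 69.7%, 70.1%, 70.7%, 70.2% and 68.5% of them were well above background, by the flag of the scanner software, for replicates 1 to 5. MI replicates 1 to 3 had 65.7%, 70.4% and 70.1%, whereas MI replicates 4 and 5 had 60.5% and 62.2%. MI replicates 2 and 3 thus lay within the sham range, and the lowest shares were on slide 3, where the background was highest. The mean was 69.8% ± 0.836 in sham and 65.8% ± 4.51 in MI (SD, n = 5 each), a difference of -4.01 percentage points (exact permutation test over 252 arrangements, two-sided, p = 0.127; 0.286 after Benjamini-Hochberg adjustment over 3 array measures). Within slide 2 the MI mean was 0.31 points above the single sham array, and without slide 3 the difference was -1.04 points (exact permutation test, p = 0.571). The part of background in the difference was not tested. The software's other flag marks a signal as positive and significant. By it 83.2% to 84.6% of catalogue probes were detected on sham arrays and 81.1% to 85.1% on MI arrays. MI replicate 5, on slide 3, was then within the sham range at 84.3%, so the size of the difference depends on the flag.

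Counted over arrays, 29159 catalogue probes (56.4%) were well above background on all 10 and 11665 (22.6%) on none. Another 10867 (21.0%) were above it on 1 to 9 arrays. Only 3 probes (0.00580%) were detected on all 5 MI arrays and on no sham array, and 66 (0.128%) on all 5 sham arrays and no MI array. Among custom probes these numbered 2 (0.00213%) and 131 (0.140%), so the imbalance was not particular to catalogue probes. A much larger class, 1806 probes (3.49%), was detected on all sham arrays and on MI replicates 1 to 3 but on neither array of slide 3. Among custom probes that class held 5958 (6.35%).

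Catalogue probes were detected more often than custom probes on every array. The gap between the shares was 26.1, 25.4, 25.9, 25.6 and 25.7 percentage points for sham replicates 1 to 5, and 26.8, 24.6, 26.1, 31.8 and 31.3 for MI replicates 1 to 5. It averaged 26.9 ± 2.51 points (SD, n = 10) and was above 0 on 10 of 10 arrays (exact sign-flip permutation test, two-sided, p = 0.00195, the smallest possible). The gap was widest on slide 3. Its mean was 25.8 ± 0.250 points in sham and 28.1 ± 3.25 in MI (SD, n = 5 each), a difference of 2.38 points (exact permutation test, two-sided, p = 0.190, adjusted 0.286), and 0.08 points without slide 3 (exact permutation test, p = 0.821). By the positive and significant flag the gap was smaller, from 14.7 points on MI replicate 2 to 20.5 on MI replicate 4. In all, 68.1% of the catalogue probes and 41.3% of the custom probes passed the filter for testing, which asked for a signal well over background in 4 or more of a group's 5 samples.

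The series within the catalogue form differed moderately. The share tested was 73.7% of the 9687 probes of series 51, 65.2% of 9053 in series 52, 68.1% of 25033 in series 55, 67.1% of 998 in series 65 and 64.1% of 6920 in series 66. On single arrays the share above background ran from 67.2% to 75.9% in series 51 and from 54.2% to 66.8% in series 66.

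Detection went with base composition. Of the 853 catalogue probes with less than 30% G and C, 19.1% passed the filter, against 55.7% between 30% and 40%, 72.5% between 40% and 50%, 88.5% between 50% and 60%, and 95.0% at 60% or more. Base composition sets how tightly a probe binds as well as which transcripts it can represent, and these were not separated. Among custom probes the shares of the first 4 classes were 5.42%, 27.7%, 42.6% and 55.7%, each below that of catalogue probes of the same class, and no custom probe had 60% or more. The median log2 fold change of MI over sham was between -0.14 and -0.04 in all 5 composition classes.

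Catalogue probes held the polyadenylation signal AATAAA more often than custom probes did, in 10.3% against 3.67%. The signal lies near the 3′ end of many messenger RNAs. Its reverse complement, TTTATT, occurred in 3.96% and 2.67%. Read in the printed direction, the signal was most frequent in series 55, with 14.8%, and was in 5.15% of series 51. None of the 18 called probes held it among their 60 bases. A match to these letters is a description of the probe, not evidence of a used site.

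The signals covered a wide range. The brightest catalogue probe of an array had a log2 processed signal of 19.03 on the sham replicate 1 array, and of 17.96 on MI replicate 5, the lowest among the arrays. The dimmest probe counted as well above background was at 2.65 on sham replicate 4 and at 3.67 on MI replicate 4. The span between brightest and dimmest detected probe was 16.3 log2 units on sham replicate 1 and 14.4 on MI replicate 4. No catalogue probe was saturated. The 100 brightest catalogue probes carried 33.0% of the summed catalogue signal on sham replicate 1 and 29.0% on sham replicate 5, and 27.5% on MI replicate 4 and 31.6% on MI replicate 2. Of the 176 probes that were among the 100 brightest on some array, 45 were so on all 10. These 45 had log2 fold changes from -0.75 to 0.18 with a median of -0.37. None reached 2-fold and none was called.

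The 75th percentile of the log2 signal of catalogue probes, before any scaling, was 7.67, 7.65, 7.85, 7.66 and 8.02 for sham replicates 1 to 5. In MI it was 7.88, 7.84, 7.81, 7.74 and 7.29, so MI replicate 5 was the dimmest array. The means, 7.77 ± 0.16 and 7.71 ± 0.24 (SD, n = 5 each), differed by -0.06 (exact permutation test, two-sided, p = 0.714, also after adjustment). Below, each value is the log2 signal minus the array's own 75th percentile over all noncontrol spots, and is called the scaled log2 signal.

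The MI samples differed from each other more than the sham samples did. Over the 35199 tested catalogue probes the median SD of the scaled log2 signal was 0.17 between the 5 sham arrays and 0.50 between the 5 MI arrays, and the SD was larger in MI for 93.4% of probes. Part of this lay between slides. Among sham replicates 1 to 4, on 1 slide, the median SD was 0.13, among MI replicates 1 to 3, also on 1 slide, it was 0.26, and between MI replicates 4 and 5 it was 0.33. The sham SD fell with brightness, from 0.28 in the dimmest of 4 equal classes of probes to 0.13 in the brightest, whereas the MI SD was 0.57 in the dimmest class and 0.52 in the brightest.

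Probes with 10 spots give the technical error within an array. For the 694 of them that were above background on all arrays, the median SD between spots was 0.10, and by array it ran from 0.083 to 0.113. Between arrays the same probes had a median SD of 0.13 in sham and 0.49 in MI. The matching technical error, that of the mean over an array's spots, had a median of 0.033. The spread between arrays was above it in both groups, and these arrays carry separate samples.

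The spread can be counted per sample. Against the mean of the other sham arrays, sham replicates 1 to 4 had between 31 and 52 catalogue probes at least 2-fold higher and between 90 and 160 at least 2-fold lower, and sham replicate 5, on slide 2, had 215 and 202. Against the mean of all sham arrays, MI replicate 1 had 194 higher and 433 lower. MI replicate 2 had 1239 higher and 4711 lower, and MI replicate 3 had 814 and 1776. MI replicates 4 and 5 had 2582 and 3471 higher and 2604 and 3710 lower. By these counts MI replicate 1 lay nearest to the sham group and MI replicate 5 farthest.

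The design compares transcript levels in border tissue after MI with those in sham ventricle. The difference was fitted with limma over all 73918 tested probes of both ID forms, and p-values were adjusted by Benjamini-Hochberg over all of them. Of 35199 tested catalogue probes, 16 were higher and 2 lower in MI at an adjusted p under 0.05, and all 18 differed by at least 2-fold. None was called once slide was added to the fit, with adjusted p-values of the 18 from 0.226 to 0.918 in limma with slide as a fixed block and from 0.0913 to 0.479 as a random block. The fixed block rests the difference on slide 2 alone, which holds a single sham array. The p-values given below for single probes are those of the fit without slide. Among all tested probes 0.0298% were called higher and 0.0189% lower. Called catalogue probes belonged to series 51 (7 higher), series 52 (2 higher) and series 55 (7 higher and 2 lower), and none to series 65 or 66. The split between higher and lower was 9 and 0 after median scaling, 5 and 0 after quantile normalization or with the authors' deposited value table, and 3 and 0 with normexp background correction. Shares over all tested probes are not given for these settings, so the counts do not show whether custom probes changed likewise. Normexp, which raises the floor of dim signals, also shrank the differences of the 18, to between 0.38 and 2.73 for the higher probes and to -0.18 and -0.56 for the lower ones, on the log2 scale. Without a threshold for many tests, 5521 catalogue probes (15.7%) had an unadjusted p under 0.05 in limma, 2421 higher and 3100 lower, and over all tested probes 7.15% were so higher and 7.51% lower. The median log2 fold change over tested catalogue probes was -0.11.

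No pair of MI and sham values overlapped in any of the 18 called probes. Over all tested probes, 2.01% had every MI value above every sham value and 1.76% every MI value below. In catalogue probes these were 742 and 686.

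A_51_P409010 was well above background on all MI arrays but only 2 sham arrays, so the size of its difference is uncertain. Its scaled log2 signal was -3.13, -3.46, -5.49, -3.04 and -4.81 in sham replicates 1 to 5 and -1.49, 3.69, 3.11, 1.60 and 3.31 in MI replicates 1 to 5. MI replicate 1 was the MI sample nearest to sham, and the other MI samples were far above it. The means were -3.99 ± 1.10 and 2.04 ± 2.13 (SD, n = 5 each), a log2 difference of 6.03 (SE 0.89; adjusted p = 0.0469 in limma) that became 6.91 without MI replicate 1.

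A_52_P302544 lay at -4.62, -5.29, -4.31, -5.28 and -4.82 in sham and at -2.78, 0.88, 0.09, -0.14 and 0.95 in MI. It was not well above background on any sham array, and was so on 4 MI arrays. Its log2 fold change of 4.66 (SE 0.60; adjusted p = 0.0311 in limma) is therefore only bounded, and the MI mean was at least 8.40-fold higher. Without MI replicate 1 the fitted difference was 5.31. The bound, here and below, sets the mean of the brighter group against the mean, over the dimmer group's arrays, of the lowest signal that counted as well above background, or the probe's own signal where higher. It allows for dim signals only and not for the spread between samples, so single samples can differ by less.

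The repeated probe A_55_P2083609 rests on 10 spots per array. Its sham values were -4.89, -5.27, -5.36, -4.85 and -5.16 and its MI values -2.27, -0.53, -0.98, -1.39 and 0.18. All 5 MI arrays and no sham array measured it above background, which made it the only called probe among the 3 of that kind. It had the lowest adjusted p of all called catalogue probes (log2 fold change 4.11, SE 0.37; adjusted p = 0.0107 in limma), and MI was at least 4.83-fold higher.

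A_52_P220176 was measured above background on all 10 arrays. Sham samples were tightly grouped at -0.52, -0.70, -0.95, -0.61 and -0.77, and MI samples lay at 1.90, 3.75, 2.95, 2.77 and 4.48. The lowest MI sample was again replicate 1, and the difference between the means was larger than the SD of either group. The log2 fold change was 3.88 (SE 0.39; adjusted p = 0.0149 in limma), which is 14.7-fold.

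A_55_P2740153, well above background on all MI arrays and on 4 sham arrays, differed by nearly as much. It was at -2.61, -2.43, -2.57, -2.49 and -3.48 in sham and at 0.04, 2.09, 1.21, 0.30 and 2.11 in MI. Sham replicate 5, the one on slide 2, was the lowest sham value, so the difference within slide 2 (4.59) exceeded that over all arrays (3.87, SE 0.41; adjusted p = 0.0149 in limma).

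A pair of dim probes was above background on 4 MI arrays and no sham array. For A_55_P2040245 the sham values ran from -5.24 to -3.85 and the MI values from -2.34 to -0.33, and MI was at least 3.56-fold higher (log2 fold change 3.08; adjusted p = 0.0311 in limma). For A_55_P2142232 the ranges were -4.71 to -3.91 and -2.90 to -0.95, and MI was at least 3.10-fold higher (log2 fold change 2.63; adjusted p = 0.0356 in limma). In each of them the groups were apart by more than 1 log2 unit.

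Other called probes were well above background on every array. A_51_P157042 had the highest signal among the called probes, at 4.01, 3.65, 3.46, 3.77 and 3.45 in sham and 4.90, 5.99, 5.70, 5.32 and 6.04 in MI. Its log2 fold change was 1.92 (SE 0.23; adjusted p = 0.0297 in limma), or 3.79-fold. A_55_P2745402 was at 1.34, 0.92, 1.50, 1.15 and 1.17 in sham and at 2.12, 3.39, 3.65, 3.45 and 3.45 in MI, with 4 MI samples close together and replicate 1 below them (1.99, SE 0.27; adjusted p = 0.0387 in limma). A_51_P428708 had the same shape, with sham values from 0.47 to 0.97, MI replicate 1 at 1.69 and the other MI samples from 2.93 to 3.36.

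A_51_P464703 rose from a sham range of -2.55 to -1.48 to -0.26, 0.14, 1.56, 2.20 and 1.63 in MI, a log2 difference of 3.00 (SE 0.44; adjusted p = 0.0469 in limma). A_55_P2746459 went from a range of -0.27 to 0.35 in sham to one of 1.08 to 3.22 in MI, and its log2 fold change was 2.45. A_51_P255456, from -1.31 to -0.75 in sham and 0.23 to 1.36 in MI, differed by 1.83 (SE 0.22; adjusted p = 0.0297 in limma). All 3 were well above background on every array.

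The remaining probes called higher were A_51_P208603, A_55_P2733332 and A_51_P508838, with log2 fold changes of 2.15, 1.75 and 1.28 (limma, adjusted p = 0.0469 for each). A_51_P208603 was above background on only 2 sham arrays, and its MI replicate 1, at -2.11, lay just above the highest sham sample at -2.57. The smallest called difference was that of A_51_P508838, with sham values from -1.92 to -1.32 and MI values from -0.73 to 0.01.

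Only A_55_P2149941 and A_55_P2035956 were called lower. A_55_P2149941, with 10 spots, was at -2.40, -2.42, -2.46, -2.31 and -2.32 in sham and at -3.10, -3.76, -3.87, -4.05 and -4.17 in MI. It was above background on all sham arrays and on no MI array, so MI was at least 1.31-fold lower (log2 fold change -1.41; adjusted p = 0.0469 in limma). A_55_P2035956 was at -0.30, 0.08, -0.06, -0.16 and 0.10 in sham and at -1.13, -1.34, -1.19, -1.21 and -1.96 in MI, a log2 difference of -1.30 (SE 0.19; adjusted p = 0.0469 in limma).

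Just outside the threshold were A_51_P103397 with a log2 fold change of 1.13 (adjusted p = 0.0564 in limma), A_66_P139257 with -1.16 (adjusted p = 0.0591 in limma) and A_52_P588881 with 1.81 (adjusted p = 0.0639 in limma). In all 18 called probes MI replicate 1 was the MI sample nearest to the sham samples. Of the 18, 8 were well above background on all 10 arrays, and 5 on no array of their lower group.

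The count of calls turned on single arrays. Without MI replicate 1, limma called 566 catalogue probes higher and 148 lower, where 1.19% of all tested probes were called higher and 0.479% lower. Without MI replicate 4 it called 29 higher and 58 lower (0.0609% and 0.138% of all tested probes). No catalogue probe was called when sham replicate 2, 3 or 4 or MI replicate 3 was dropped, with 3982, 3753, 3837 and 4702 at an unadjusted p under 0.05 in limma. Dropping sham replicate 1 left 1 call and sham replicate 5 left 8, when 0.00271% and 0.0338% of all tested probes were called. Dropping MI replicate 2 left 6 and MI replicate 5 left 7, when 0.0257% and 0.0244% of all tested probes were called.

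Calls also depended on whether slide was in the fit. As a fixed block, slide left the difference to slide 2 alone, with MI replicates 1 to 3 and a single sham array. The log2 fold changes of the 18 called probes then ran from 1.17 to 6.58 and from -1.32 to -1.25. Without the block they ran from 1.28 to 6.03 and from -1.41 to -1.30. For A_52_P220176 the SE was 0.69 with the block and 0.39 without. Whether slide accounts for the loss of calls was not tested. With slide as a fixed block, limma called 0 catalogue probes (1862 at an unadjusted p under 0.05), and as a random block 0 (2528). When both arrays of slide 3 were left out it called 973 catalogue probes higher (2.76%) and 7455 lower (21.2%). Over all tested probes the shares were 3.34% and 13.0%, and over custom probes 3.87% and 5.50%. Most of these differences were small, since 311 and 785 catalogue probes were called and at least 2-fold apart, against 0.782% and 1.79% of all tested probes, and the median log2 fold change was -0.20. Median scaling turned the 2-fold counts without slide 3 into 250 and 1138, and quantile normalization into 323 and 579. For these 4 counts the shares over all tested probes are not given. In this smaller set of arrays 4 of 5 sham samples were on slide 1 and every MI sample on slide 2. Adding slide as a block to it gave 0 calls in limma (3564 at an unadjusted p under 0.05). The 18 probes called with all arrays were all called without slide 3 and without MI replicate 1. In each of them MI replicate 1 was the MI sample nearest to sham, so leaving it out widened the difference. Both settings also raised the number of calls, so that all 18 stayed is no separate support.

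Each slide comparison can be read by itself for the called probes, as a description. Their direction within slide 2 follows from groups that do not overlap and adds nothing, so the sizes alone are given. Within slide 2 the MI mean minus sham replicate 5 was 6.58 for A_51_P409010, 3.90 for A_55_P2083609, 3.63 for A_52_P220176, 2.08 for A_51_P157042, -1.25 for A_55_P2149941 and -1.32 for A_55_P2035956. Between MI on slide 3 and sham on slide 1 the same probes differed by 6.23, 4.49, 4.32, 1.96, -1.71 and -1.47. A_51_P409010, A_55_P2083609, A_55_P2149941 and A_55_P2035956 were not well above background on some or all arrays of their lower group. Their sizes in both comparisons are therefore uncertain.

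A separate reading used fold size alone and took probes at least 2-fold apart from sham replicate 5 in each MI sample of slide 2. In each MI sample of slide 3 they also had to be at least 2-fold from the mean of the slide 1 sham samples. This fold reading kept 59 catalogue probes higher and 6 lower, and over all tested probes 0.104% and 0.0244%. On slide 2 alone 104 and 72 catalogue probes met the condition, as did 0.244% and 0.219% of all tested probes. Of the 59, 11 were also called and 47 had groups that did not overlap. Their median log2 fold change was 1.98, and 7 were not well above background on any sham array. Of the 6 lower probes, 1 was called and 4 did not overlap, with a median log2 fold change of -1.44, and 3 were not well above background on any MI array. These values chose the probes and carry no test.

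The fold reading added probes that the fit did not call, each ranked high by the smaller of its differences. They are shown by their first 30 bases, the first of them higher in MI and the others lower.

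A_55_P2058040: gcatggaggctgaagatgctgccacttatt

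A_51_P451574: tatcaaaatagtgctgattcaagggctggg

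A_55_P2147712: cttggaagcagcataaggatatagcattat

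A_66_P119382: agcacacgcggctcattgatatgtcatttt

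A_51_P429660: ttgcctgctaaaatgctagatgaaatctaa

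A_55_P2058040 was at -5.32, -3.95, -3.76, -3.64 and -5.09 in sham, above background on no array, and at -2.84, -2.11, 1.61, -1.72 and 1.98 in MI. MI replicates 3 and 5 stood well above the other MI samples. By the bound defined above the MI mean was at least 6.30-fold higher (adjusted p = 0.141 in limma). That mean, -0.61 with an SD of 2.24, was above MI replicates 1, 2 and 4. A_51_P451574 was detected on every array. It was at 0.27, 0.01, 0.76, 0.85 and 1.44 in sham and at -0.27, -2.13, -2.10, -0.61 and -1.93 in MI, a log2 difference of -2.07 (SE 0.41; adjusted p = 0.104 in limma). The groups did not overlap, though MI replicate 1 lay close to the lowest sham sample.

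A_55_P2147712 and A_66_P119382 were above background on all sham arrays and no MI array, so that MI was at least 1.66-fold and at least 1.19-fold lower. A_51_P429660 was so on 4 sham arrays and no MI array, and MI was at least 1.09-fold lower. The fitted log2 fold changes of these 3 probes were -1.75, -1.28 and -1.59 (limma, adjusted p = 0.112, 0.0762 and 0.113).

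Exact matches placed 291 catalogue probes (0.563%) in windows from 250 bases before to 50 bases after the starts of annotated genes (RefSeq, GRCm38.p6; 32851 windows). Of the 275 that lay at a single gene start, 128 had the sequence of the gene's own strand and 147 that of the opposite strand. Wholly before the start lay 107 and 128 of them. The share tested was 69.5% for the same strand and 66.7% for the opposite strand, close to the 68.1% of all catalogue probes. Such a probe can report RNA that crosses the stretch before a gene, which need not be that gene's own transcript. Matches outside these windows were not searched, so the signal may also come from elsewhere.

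None of the 197 placed and tested probes was called (limma, smallest adjusted p = 0.122). At an unadjusted p under 0.05 there were 25 (12.7%), 10 higher and 15 lower, against 15.7% of all tested catalogue probes, and in 10 (5.08%) the groups did not overlap, where 2.01% of all tested probes did not overlap with MI higher and 1.76% with MI lower. The full sequences of the 5 with the lowest p-values among those wholly before a start are printed with their places. They were chosen after their values were seen.

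Tmbim1 window, A_55_P2013251, chr1:74304464-74304523, plus strand: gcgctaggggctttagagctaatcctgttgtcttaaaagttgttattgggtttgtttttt

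Gzmm window, A_52_P661496, chr10:79688818-79688877, plus strand: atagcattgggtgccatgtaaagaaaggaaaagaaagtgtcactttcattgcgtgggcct

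Gm40826 window, A_55_P2844759, chr13:17685792-17685851, minus strand: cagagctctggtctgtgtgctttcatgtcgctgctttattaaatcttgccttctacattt

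Meg3 window, A_55_P2736854, chr12:109545260-109545319, plus strand: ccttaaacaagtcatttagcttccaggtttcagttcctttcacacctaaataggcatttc

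Syt11 window, A_55_P2927621, chr3:88772681-88772740, minus strand: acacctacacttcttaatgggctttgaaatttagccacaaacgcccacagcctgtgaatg

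A_55_P2736854 lies at positions -138 to -79 from the start of Meg3, on the same strand. Meg3 is a maternally expressed long noncoding RNA of an imprinted locus. The probe was at -2.43, -1.62, -2.55, -2.02 and -2.02 in sham and at -1.72, -0.01, 0.34, -0.77 and 1.49 in MI. MI replicate 1 was within the sham range and the other MI samples above it, with a difference of means of 1.99 log2 units (SE 0.48; adjusted p = 0.148 in limma).

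A_55_P2844759, at positions -73 to -14 from the start of the predicted gene Gm40826 on its strand, was among the brighter probes, at 6.68, 6.60, 6.63, 6.77 and 6.93 in sham and 7.20, 7.61, 8.78, 7.88 and 8.95 in MI. The groups did not overlap, and the difference was 1.36 (SE 0.31; adjusted p = 0.131 in limma). The other 3 probes of this group were lower in MI by less than 1 log2 unit, and none passed the threshold.

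A_52_P661496, with 10 spots, lies at positions -202 to -143 from the start of Gzmm, the gene of the lymphocyte protease granzyme M. It was at -0.41, -0.44, -0.30, -0.45 and -0.32 in sham and at -0.97, -1.26, -1.25, -0.71 and -1.48 in MI, a log2 difference of -0.75 (SE 0.17; adjusted p = 0.131 in limma). A_55_P2013251, on the strand opposite to Tmbim1 and at positions -187 to -128 from its start, was above background on all sham arrays and on no MI array, with a log2 fold change of -0.73 (adjusted p = 0.122 in limma). MI was at least 1.36-fold lower. A_55_P2927621, at positions -141 to -82 from the start of Syt11, a gene of the synaptotagmin family of membrane traffic proteins, had a log2 fold change of -0.77 (adjusted p = 0.149 in limma).

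Some catalogue probes overlap another probe by at least 25 bases. Between catalogue probes on the same strand there were 394 such pairs, and in the 312 with both members tested the log2 fold changes differed by a median of 0.32, with 77.6% of pairs within 0.5. In 142 tested pairs of catalogue probes on opposite strands the median difference was 0.11, with 88.7% within 0.5. For pairs of a catalogue and a custom probe it was 0.17 in 76 pairs on the same strand and 0.11 in 12 on opposite strands, with 88.2% and 91.7% within 0.5. The median difference was thus no larger on opposite strands than on the same strand. Pairs of unrelated probes were not compared, so these values do not show whether overlapping probes agree more than others. None of the called probes had such a partner, nor had any of the other probes named by the fold reading.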

How the data were processed

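Ventricular RNA of 10 samples, 5 MI (infarct border) and 5 sham, was read on 10 single-colour arrays. Groups and replicate numbers came from the sample titles. Spot intensity was deposited as Agilent Feature Extraction 10.7.1.1 output per the file headers, with background subtraction and no scaling between arrays. The submitters' processing notes also name RMA, with no role. The deposited flags of 0 or 1 and the authors' deposited value table, in log2 units with the same distribution in each column, were used as given.

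Log2 processed signals were averaged over spots of a probe without outlier spots, which left 33 catalogue probes without a value on some array (at least 6 arrays kept one). A probe with 10 spots counted as well above background when most of its used spots did. The 75th percentile of each array's noncontrol spots was then subtracted. Probes flagged so in 4 or more of a group's 5 samples were tested with limma 3.58.1 in R 4.3.3 (lmFit, eBayes, two-sided, Benjamini-Hochberg over both ID forms), and were called at an adjusted p under 0.05. The fit was also run on simulated data with independent noise and no slide effect, so that run does not bear on how slide affects the calls. Array measures were compared with exact permutation tests, whose smallest p for 5 against 5 is 0.00794.

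Named probes were all called catalogue probes, and up to 4 per direction that were at least 2-fold apart on both slide comparisons, ranked by the smaller mean difference. A further 6 were placed at a gene start, of which A_66_P135868 is not described above. Members, lists and rules were chosen with earlier results of these data known. Alternatives were median, quantile and normexp (offset 50) processing, the value table, other filters, eBayes options, slide and replicate blocks, and leaving out slide 3 or single arrays.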

Additional observations from a re-analysis of the deposited data

Results flagged for a closer look

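In 8 of 74 groups of 5 arrays examined (8 array measures and 29 named probes, in sham and in MI), 1 array lay far from the other 4, by Dixon's criterion for 5 values. Chance flags about 1 in 20 groups, and the probes are not independent. The causes were not tested.

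Sham replicate 5, the only sham array on slide 2, had a median background of 17.0 intensity units, against 15.0 on each other sham array. It also had 0.611% of tested catalogue probes at least 2-fold above the mean of the other sham arrays, against 0.0881% to 0.148% for the rest. At A_55_P2740153 its scaled log2 signal was -3.48, and the other sham arrays lay between -2.61 and -2.43.

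MI replicate 1 lay nearer to sham than the other MI arrays in A_51_P428708, at 1.69 against 2.93 to 3.36, and in A_55_P2745402, at 2.12 against 3.39 to 3.65. At A_51_P428708 sham replicate 2 was also apart, at 0.47 against 0.83 to 0.97.

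MI replicate 5 had the lowest 75th percentile of the unscaled log2 signal of catalogue probes, 7.29 against 7.74 to 7.88 on the other MI arrays. At A_55_P2035956 it was at -1.96, below the other MI arrays at -1.34 to -1.13.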

How the results depend on the processing

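The 18 called catalogue probes, all at least 2-fold apart, numbered 18 also with trended and robust eBayes, 16 of them the same, and with adjustment over catalogue probes alone. The number was 9 with median scaling, 5 with quantile normalization, 5 with the value table, 3 with normexp (1 of them 2-fold apart), 4 without the filter and 8 where all 10 arrays had to be well above background. In that order, 9, 4, 4, 1, 3 and 8 of these were among the 18. The number was 0 with slide as a fixed or random block, 0 with a replicate block (4585 at an unadjusted p under 0.05 in limma), whose numbers shared deviations in no regular way (correlations from -0.34 to 0.22), 8428 without slide 3 (1096 of them 2-fold apart) and 0 there with slide as a block. Leaving out single arrays gave 0 to 714 calls, and 0 to 621 that were 2-fold apart. Chosen after the data were seen, slide 3 left out gave 8544 calls with median scaling (1388 2-fold apart) and 6018 with quantile normalization (902), and the fit with slide as a block there was chosen so too. All these counts are of catalogue probes, and by themselves do not show whether custom probes changed likewise.

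The difference in detection changed sign within slide 2 (0.31 points) and ran from -5.17 to -2.68 points without single arrays, with an exact permutation p of 0.0317 without MI replicate 2 and 0.0397 without MI replicate 3. The gap between ID forms differed by 1.45 to 3.26 points, with an exact permutation p of 0.00794 without MI replicate 2. The difference in the 75th percentile changed sign without slide 3 (0.071), and from -0.10 to 0.04 without single arrays, being above 0 without sham replicate 5 (0.0037) or MI replicate 5 (0.045). The median SD between MI arrays was 0.44 with quantile normalization, 0.26 without slide 3 and 0.41 to 0.54 without single arrays, and between sham arrays 0.13 to 0.17. The gene list counts could not be run, since the files pair no probe with a gene. Differences within the dim range near background are limited by signal over background.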
